A study of Mus musculus with 8 samples.

Results

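The genes described here were 32 genes of glycolysis and of the response to low oxygen, measured in mouse pancreatic tumors grown in hosts with or without complement C3. They were chosen by name, as known members of these pathways, from a table of 29968 gene entries, with Ldha and Slc2a1 as their markers. The 32 genes fell into 16 enzymes and transporters of glycolysis (Hk1, Hk2, Gpi1, Pfkl, Pfkp, Aldoa, Tpi1, Gapdh, Pgk1, Pgam1, Eno1, Pkm, Ldha, Slc2a1, Slc16a1 and Slc16a3) and 16 genes of the hypoxia response (Hif1a, Bnip3, Car9, Egln1, Egln3, Ankrd37, Ndrg1, Adm, Pdk1, Ero1a, P4ha1, P4ha2, Kdm3a, Ddit4, Pfkfb3 and Pfkfb4), and occupied 33 entries because the symbol Aldoa had a second, nearly silent entry. The study used bulk RNA-seq of whole tumors and compared 4 tumors from WT hosts (male C57BL/6J mice) with 4 tumors from C3-/- hosts (male mice lacking complement C3). The mice were obtained at 12 weeks of age, and all hosts received 250000 KPC cells in 50 μL of PBS into the pancreas. The KPC cells are the FC1245 line, isolated from the tumor of 1 mouse engineered to form pancreatic cancer under Pdx-1-Cre. Both groups received the same cells, which keep their own C3 gene, so that only the host cells differed in genotype.

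Glycolysis converts glucose to pyruvate in the cytoplasm, and lactate dehydrogenase turns pyruvate into lactate, which leaves the cell through monocarboxylate transporters. In cells with enough oxygen, prolyl hydroxylases mark the transcription factor subunit Hif1a for destruction through the Vhl ubiquitin ligase. When oxygen is scarce, Hif1a is spared, pairs with Arnt and binds short DNA words around the core ACGTG or GCGTG in its target genes, among them glucose transporters, glycolytic enzymes and the hydroxylases themselves. Pancreatic ductal tumors are known for dense stroma, poor perfusion and low oxygen.

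The core words ACGTG and GCGTG were searched on both strands in the 250 bases before each gene start in the RefSeq promoter table, which matched 31 of the 32 genes. ACGTG stood in the window of 20 of these 31 genes (64.5%), against 18.5% of all 27025 genes in the table and 24.3% of the 11685 that were also expressed enough to be tested. At least 1 of both words stood in the window of 29 of 31 genes (93.5%), against 41.5% and 58.9%. All 15 matched hypoxia response genes held at least 1 of the words, whereas Gpi1 and Tpi1 held neither. The palindrome CACGTG, which reads as ACGTG on both strands and was counted as 1 place, stood in the windows of Ldha, Slc16a1, Hif1a, Bnip3 and Pfkfb3 (16.1%, against 6.86% of all genes and 9.54% of those tested). These are matches of letters and not measured binding sites. Upstream stretches of 8 genes, chosen as examples of enzymes, a transporter, hypoxia targets and Hif1a itself, are shown on the strand of the gene with the matched words in capitals. They start 250 bases before the RefSeq start used, end before any annotated exon of the gene within that window, and are given on build GRCm39. Those of Ldha, Hif1a and Ankrd37 lie inside the full span of the gene, which has transcripts with starts farther upstream.
Ldha (chr7:46494978-46495131, plus strand): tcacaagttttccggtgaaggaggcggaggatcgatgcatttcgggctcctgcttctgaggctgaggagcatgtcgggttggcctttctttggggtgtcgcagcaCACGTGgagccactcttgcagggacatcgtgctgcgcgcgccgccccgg
Pgk1 (chrX:105230456-105230705, plus strand): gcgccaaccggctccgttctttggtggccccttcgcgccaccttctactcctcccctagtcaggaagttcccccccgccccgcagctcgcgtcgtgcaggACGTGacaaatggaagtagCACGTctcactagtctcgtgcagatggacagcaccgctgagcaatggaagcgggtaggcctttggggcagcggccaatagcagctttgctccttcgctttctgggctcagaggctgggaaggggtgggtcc
Slc2a1 (chr4:118965692-118965907, plus strand): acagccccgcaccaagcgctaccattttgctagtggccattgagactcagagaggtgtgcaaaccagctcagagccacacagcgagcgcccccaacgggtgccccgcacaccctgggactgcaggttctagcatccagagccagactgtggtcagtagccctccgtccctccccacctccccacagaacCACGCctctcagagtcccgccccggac
Bnip3 (chr7:138511254-138511485, minus strand): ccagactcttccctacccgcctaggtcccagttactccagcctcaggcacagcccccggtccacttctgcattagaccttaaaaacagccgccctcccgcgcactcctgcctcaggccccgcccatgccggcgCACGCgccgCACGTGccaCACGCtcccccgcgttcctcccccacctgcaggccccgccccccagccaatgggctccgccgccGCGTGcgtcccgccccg
Egln3 (chr12:54250674-54250910, minus strand): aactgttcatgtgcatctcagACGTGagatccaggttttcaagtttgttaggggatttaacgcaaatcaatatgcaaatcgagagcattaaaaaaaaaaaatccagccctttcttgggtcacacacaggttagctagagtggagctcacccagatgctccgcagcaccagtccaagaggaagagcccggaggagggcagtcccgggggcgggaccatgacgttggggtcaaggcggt
Ankrd37 (chr8:46452912-46453137, minus strand): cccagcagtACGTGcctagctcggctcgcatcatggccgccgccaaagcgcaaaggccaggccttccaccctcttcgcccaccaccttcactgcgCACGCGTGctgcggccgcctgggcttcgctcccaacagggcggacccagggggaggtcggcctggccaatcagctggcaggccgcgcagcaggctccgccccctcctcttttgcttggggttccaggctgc
P4ha1 (chr10:59158868-59159091, plus strand): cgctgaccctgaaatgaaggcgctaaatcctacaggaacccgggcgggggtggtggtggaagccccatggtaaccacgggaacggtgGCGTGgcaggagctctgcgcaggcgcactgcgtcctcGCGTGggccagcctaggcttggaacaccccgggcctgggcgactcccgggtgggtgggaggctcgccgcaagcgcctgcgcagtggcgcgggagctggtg
Hif1a (chr12:73954391-73954569, plus strand): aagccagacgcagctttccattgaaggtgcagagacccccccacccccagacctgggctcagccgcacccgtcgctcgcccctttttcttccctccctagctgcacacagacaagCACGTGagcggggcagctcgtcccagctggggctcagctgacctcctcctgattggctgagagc
The Ldha stretch held 1 CACGTG, and 2 further ACGTG places of its window lay past the end of what is shown. Pgk1 held 2 places of ACGTG. Bnip3 carried the densest set, with CACGTG flanked on both sides by GCGTG read on the other strand. In Ankrd37, GCGTG overlapped itself on opposite strands, giving the run CACGCGTG. P4ha1 held 2 places of GCGTG here, and Hif1a itself held CACGTG.

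The libraries held 13266029 to 23354212 counts per tumor, and 16610 genes passed the filter on low counts. Complement C3, the gene deleted in the hosts, was measured at 210, 426, 226 and 324 CPM (counts scaled to library size) in the WT tumors and at 109, 134, 100.3 and 100.7 CPM in the C3-/- tumors, without overlap. This amounted to a log2 fold change of -1.42 ± 0.23 (SE), which DESeq2 called (adjusted p = 1.2e-05) and edgeR did not (adjusted p = 0.933, unadjusted p = 8.55e-05). The tumors differed strongly in markers of other tissues. Skeletal muscle markers (10 genes, of which Tnnc2 had at most 2 counts in any tumor) summed to 14.5, 30.2 and 23.7 CPM in WT replicate 2, WT replicate 3 and C3-/- replicate 2 and to 1607 to 4137 CPM in the other 5 tumors. All 7 acinar markers peaked in C3-/- replicate 1, where they summed to 1577 CPM against 38.9 to 465 CPM elsewhere. All 5 islet markers and all 4 adipocyte markers peaked in WT replicate 2, with sums of 72.3 CPM (0 to 1.86 CPM elsewhere) and 471 CPM (44.0 to 119 CPM elsewhere). The 6 keratin and junction genes that mark the tumor epithelium were high in every tumor, summing to 5245 to 9895 CPM. Nothing in the sources used here states that the libraries of a group came from separate mice, so the p-values measure only the spread between these samples.

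No difference between WT and C3-/- hosts was called for any of the 32 genes. All 32 passed the filter on low counts, and 0 of 32 reached an adjusted p below 0.05 with edgeR's quasi-likelihood test, where 0.0% of the 16610 genes did. DESeq2 also called 0 of 32, against 0.0848% of the 18864 genes it tested. Even without adjustment, 0 of 32 had an edgeR p below 0.05, against 5.11% of all genes tested, and the smallest was 0.0576 for Bnip3. In no member were the 4 WT values separated from the 4 C3-/- values, a pattern seen in 3.73% of all genes tested. The fitted differences nevertheless pointed mostly one way: 29 of 32 log2 fold changes (C3-/- over WT) were negative, against 50.0% of all genes tested. Their median was -0.17 over the glycolysis genes and -0.37 over the hypoxia response genes, whereas the median of all genes tested was 0.00 to 2 decimals. This lean was much smaller without a single tumor. Without WT replicate 2, 17 of 32 were negative, and the medians were -0.03 and 0.05. Without C3-/- replicate 1, the tumor highest for 7 members, they were -0.34 and -0.46. With all 8 tumors and the skeletal muscle markers as a covariate they were -0.0889 and -0.15, and with the acinar markers -0.0904 and -0.37. Because whole tumors were sequenced, fewer cells of a type and less RNA per cell cannot be told apart in any of these levels.

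**Figure D1:**
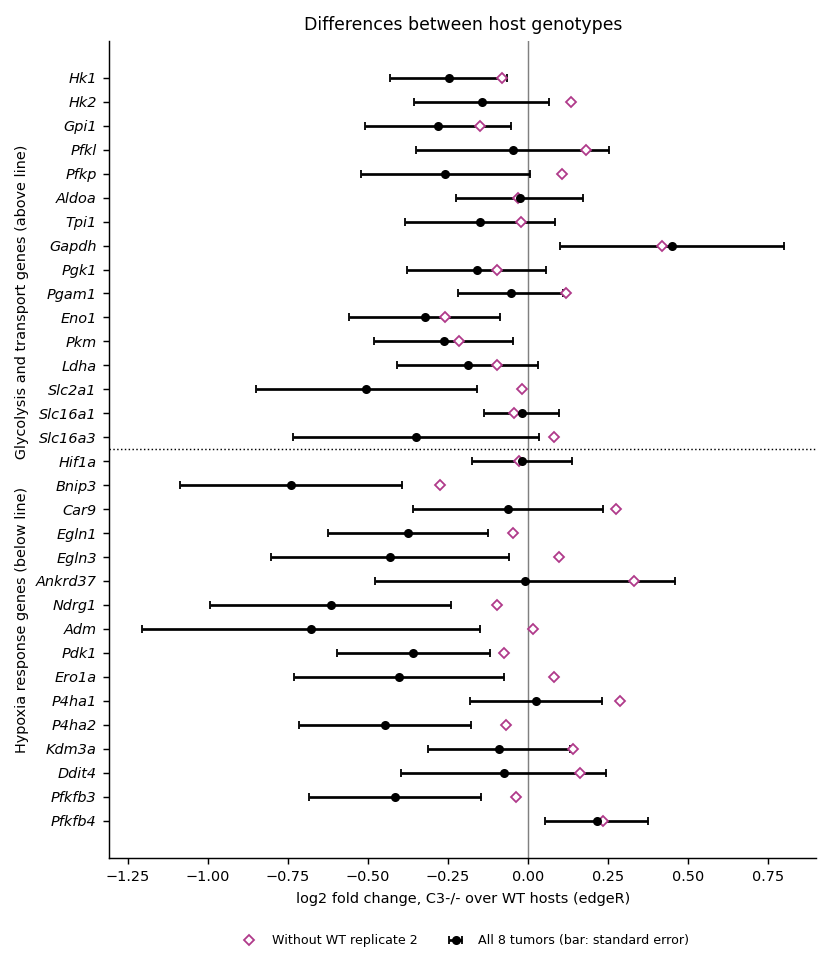
Log2 fold change of each gene between C3-/- and WT hosts, on the x axis, with glycolysis and transport genes above the dotted line and hypoxia response genes below it. Filled points with bars are the fit to all 8 tumors with its standard error, and open diamonds are the fit without WT replicate 2. Filled points lie left of 0 for 29 of 32 genes, and 17 of the 32 diamonds do.

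Per length, 7 enzymes from aldolase to lactate dehydrogenase were the most abundant of the 32 transcripts. The authors' FPKM, which divide by gene length and so allow genes to be set side by side, averaged 368 over the 8 tumors for Pkm (pyruvate kinase), 326 for Aldoa (aldolase), 305 for Pgk1 (phosphoglycerate kinase), 302 for Ldha, 231 for Tpi1 (triose phosphate isomerase), 230 for Eno1 (enolase) and 164 for Pgam1 (phosphoglycerate mutase). The steps before aldolase were lower: Gpi1 (glucose-6-phosphate isomerase) averaged 78.6 FPKM, the phosphofructokinases Pfkl and Pfkp 37.9 and 12.2, and the hexokinases Hk2 and Hk1 29.4 and 27.2. Among hypoxia response genes, Ddit4, an inhibitor of mTOR signaling, was highest with 95.2 FPKM, and Pfkfb4 lowest with 3.28 FPKM. Gapdh, usually among the most abundant glycolytic transcripts, averaged only 16.4 FPKM (range 10.8 to 35.8). The mouse genome holds many near-identical copies of Gapdh, so its count is uncertain, and it is also the gene with the most positive fold change in the set (0.45 ± 0.35). That value rested on C3-/- replicate 3, at 149 CPM against 44.8 to 82.0 CPM in the other 7 tumors, and became -0.06 without it.

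**Figure D2:**
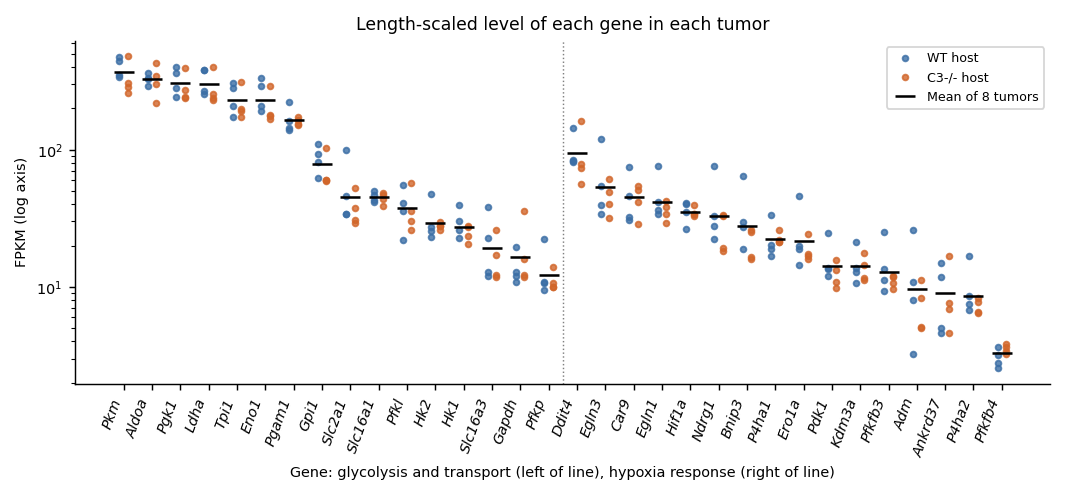
FPKM of each gene in each tumor on a log axis, glycolysis and transport genes left of the dotted line and hypoxia response genes right of it, each ordered by mean. Points are tumors (WT hosts blue, C3-/- hosts orange) and black dashes are means of 8 tumors. The levels run from 368 FPKM for Pkm to 3.28 FPKM for Pfkfb4, and the tumors of both genotypes overlap in every gene.

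Ldha, which makes lactate from pyruvate, was measured at 887, 1279, 1280 and 849 CPM in the WT tumors and at 1333, 778, 850 and 807 CPM in the C3-/- tumors. The high values were thus WT replicates 2 and 3 and C3-/- replicate 1, and the groups overlapped fully, at 1074 ± 238 (SD, n = 4) against 942 ± 262 CPM (n = 4). The log2 fold change was -0.19 ± 0.22 (SE), with an edgeR adjusted p of 0.999, and ranged from -0.40 without C3-/- replicate 1 to -0.0927 without WT replicate 3 when 1 tumor was left out. Leaving out WT replicate 2 gave -0.10, and leaving out replicate 2 or 4 of the C3-/- tumors gave -0.11 and -0.12. Eno1, the enolase that forms phosphoenolpyruvate, had the same 3 tumors on top, with 1123, 1569, 1801 and 1051 CPM in WT and 1578, 912, 959 and 985 CPM in C3-/- tumors. Its log2 fold change was -0.32 ± 0.24 (edgeR adjusted p = 0.999), and -0.54 without C3-/- replicate 1 and -0.17 without WT replicate 3. These same 3 tumors, WT replicates 2 and 3 and C3-/- replicate 1, were the 3 highest for 10 of the 16 glycolysis genes (Hk1, Gpi1, Pfkl, Tpi1, Pgk1, Eno1, Pkm, Ldha, Slc2a1 and Slc16a3). They were the 3 highest for 4 of 16 hypoxia response genes (Egln1, Egln3, Ankrd37 and Adm) and for 6.66% of all genes tested. This grouping of tumors was chosen after the values were seen and is given without a test. WT replicate 3 and C3-/- replicate 1 also had the highest sums of the tumor epithelium markers, at 9895 and 8882 CPM. WT replicate 2 came next at 7907 CPM, and the remaining tumors had 5245 to 7737 CPM. Of the 6 markers, 4 peaked in WT replicate 3 and 1 in C3-/- replicate 1. Cdh1 peaked in C3-/- replicate 2 at 1208 CPM, against 971 CPM in WT replicate 3 and 853 CPM in C3-/- replicate 1. Sums of the 3 red cell markers were also highest in WT replicate 3 and C3-/- replicate 1 (1878 and 980 CPM, against 138 to 555 CPM). Those of the 5 neutrophil markers were 80.8 and 112 CPM there, against 26.6 to 56.1 CPM elsewhere. The part of these cells in the enzyme levels was not tested.

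The remaining enzymes are given by their spans. From the lowest to the highest tumor, Pgam1 spanned 1.61-fold, Pgk1 1.68-fold, Tpi1 1.79-fold, Pkm and Gpi1 1.83-fold each, Hk1 1.92-fold, Aldoa 1.95-fold, Hk2 2.06-fold, Pfkp 2.34-fold and Pfkl 2.58-fold. Their log2 fold changes between genotypes lay between -0.28 (Gpi1) and -0.03 (Aldoa), and depended on single tumors. With 1 tumor left out, they ranged from -0.52 to -0.15 for Gpi1, -0.35 to -0.08 for Hk1 and -0.37 to -0.02 for Tpi1. The ranges were -0.36 to -0.04 for Pgk1 and -0.49 to -0.16 for Pkm. Aldoa, like Gapdh, was not high in WT replicate 2 (964 CPM, 0.976 times the median of the other tumors). The second Aldoa entry held 6 to 20 counts per tumor. Isoforms that skeletal muscle uses moved with the muscle markers: Pfkm, the muscle phosphofructokinase, was at 45.1 to 60.1 CPM in the 3 tumors nearly free of muscle markers and at 112 to 189 CPM in the other 5, and Eno3 at 9.13 to 13.9 against 35.3 to 68.0 CPM. Neither isoform belongs to the 32 genes.

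Slc2a1, the main glucose importer of tumor cells, spanned 3.38-fold between tumors, against 1.61-fold to 2.58-fold for the 12 enzymes other than Gapdh (3.32-fold). It was at 119, 351, 164 and 120 CPM in WT tumors and at 185, 133, 109 and 104 CPM in C3-/- tumors. WT replicate 2 had 2.92 times the median of the other 7 tumors, and the other WT values fell within the C3-/- range. The log2 fold change was -0.50 ± 0.35 (edgeR adjusted p = 0.995), and -0.02 without WT replicate 2. Slc16a3, the lactate exporter induced by hypoxia, behaved alike, with 205 CPM in WT replicate 2 and 63.4 to 140 CPM elsewhere. Slc16a1, a lactate transporter that works in both directions, was the steadiest of all 32 genes: it lay between 175 and 220 CPM in every tumor, a 1.26-fold span, with a log2 fold change of -0.02 ± 0.12.

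Hif1a itself did not follow its targets. Its transcript was at 157, 207, 238 and 244 CPM in WT tumors and at 195, 203, 200 and 238 CPM in C3-/- tumors, with group means of 212 ± 40.0 and 209 ± 19.8 CPM (SD, n = 4 each). The tumor with the highest target levels, WT replicate 2, was at 1.02 times the median of the others for Hif1a. The log2 fold change was -0.02 ± 0.16 (edgeR adjusted p = 0.999). Regulation of this factor by oxygen acts mainly on its protein, which was not measured. The hydroxylase genes that act on it did vary. Egln1 was at 122, 274, 152 and 132 CPM in WT and at 154, 140, 124 and 106 CPM in C3-/- tumors. Egln3, the more strongly hypoxia-induced family member, was at 90.5, 319, 146 and 107 CPM in WT and at 166, 132, 108 and 85.6 CPM in C3-/- tumors. Both peaked in WT replicate 2 and were lowest in C3-/- replicate 4. Their log2 fold changes were -0.38 ± 0.25 and -0.43 ± 0.37 (edgeR adjusted p = 0.992 and 0.999), which became -0.05 and 0.10 without WT replicate 2.

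**Figure D3:**
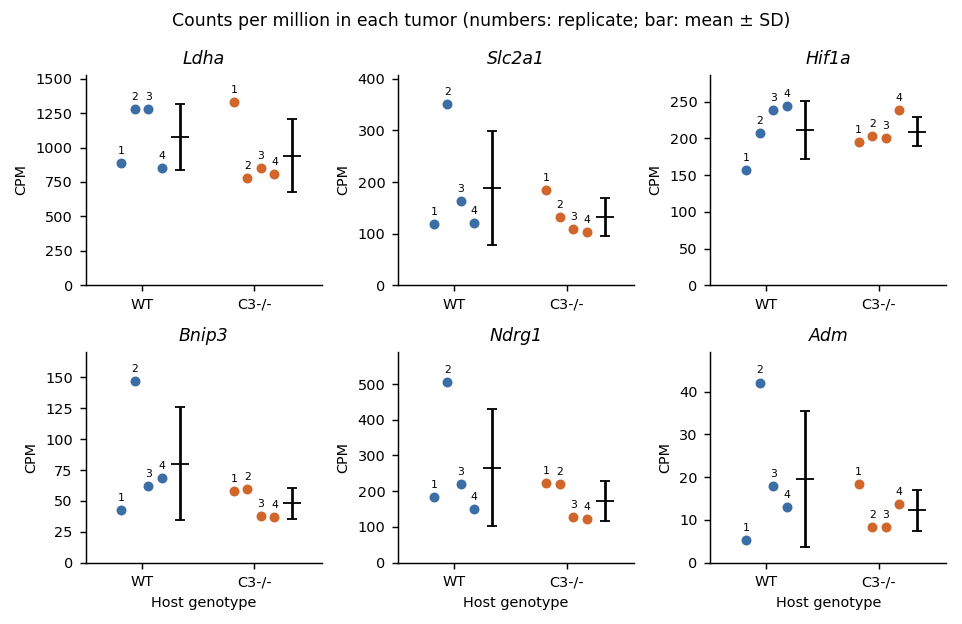
CPM of 6 genes in each tumor, with the replicate number above each point and the mean ± SD of the 4 tumors beside it. Slc2a1, Bnip3, Ndrg1 and Adm each show 1 WT tumor, replicate 2, above all others, at 351, 147, 507 and 42.1 CPM, while Hif1a stays between 157 and 244 CPM in all 8 tumors.

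Among the direct targets, Bnip3, a mitochondrial protein that promotes mitophagy, had the most negative fold change and the smallest p of the set. It was at 42.7, 147, 62.2 and 68.5 CPM in WT tumors and at 57.6, 59.7, 37.4 and 36.7 CPM in C3-/- tumors. WT replicate 2 stood far above the rest, WT replicate 1 lay among the C3-/- tumors, and the log2 fold change of -0.74 ± 0.35 (edgeR adjusted p = 0.971, DESeq2 0.753) shrank to -0.27 without WT replicate 2. Ndrg1, a stress-response gene, was at 185, 507, 219 and 149 CPM in WT and at 222, 219, 128 and 121 CPM in C3-/- tumors, so that only WT replicate 2 exceeded the C3-/- range. Its log2 fold change was -0.62 ± 0.38 (edgeR adjusted p = 0.990), and -0.10 without WT replicate 2. Adm, which encodes the vasodilator peptide adrenomedullin, had the widest spread of all 32 genes, 8.06-fold. It was at 5.22, 42.1, 17.9 and 13.1 CPM in WT and at 18.4, 8.23, 8.32 and 13.7 CPM in C3-/- tumors, with both extremes in WT hosts. Its log2 fold change was -0.68 ± 0.53 (edgeR adjusted p = 0.999) and became 0.02 without WT replicate 2. Ankrd37, an ankyrin repeat gene, was at 7.15, 23.1, 18.5 and 7.83 CPM in WT and at 26.2, 11.9, 10.6 and 7.16 CPM in C3-/- tumors, and its log2 fold change of -0.01 ± 0.47 left the direction undecided.

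WT replicate 2 was also the highest tumor for Pdk1, Pfkfb3 and P4ha2. Pdk1, a kinase that inhibits the pyruvate dehydrogenase complex, was at 106, 193, 107 and 94.6 CPM in WT and at 105, 123, 84.7 and 77.2 CPM in C3-/- tumors (log2 fold change -0.36 ± 0.24, edgeR adjusted p = 0.992). Pfkfb3, whose product raises fructose-2,6-bisphosphate and so drives glycolysis, was at 84.7, 190, 71.1 and 103 CPM in WT and at 91.3, 89.9, 81.4 and 74.0 CPM in C3-/- tumors (-0.42 ± 0.27, edgeR adjusted p = 0.992). Pfkfb4, a related enzyme, was an exception, at 12.4 to 18.1 CPM in WT and 15.9 to 18.8 CPM in C3-/- tumors, with a log2 fold change of 0.21 ± 0.16. P4ha2, a collagen prolyl hydroxylase subunit, was at 42.4, 106, 53.9 and 47.6 CPM in WT and at 48.9, 52.3, 41.2 and 40.7 CPM in C3-/- tumors (-0.45 ± 0.27, edgeR adjusted p = 0.987). For each of Pdk1, Pfkfb3 and P4ha2, removal of WT replicate 2 left a log2 fold change between -0.08 and -0.04. The other targets spanned 1.98-fold (Kdm3a) to 3.23-fold (Ero1a, an oxidase of protein folding) between tumors. Car9, a carbonic anhydrase used as a hypoxia marker, ran from 67.7 to 174 CPM, and Kdm3a, a histone demethylase, from 88.7 to 176 CPM. Ddit4 ran from 99.6 to 286 CPM and peaked in C3-/- replicate 1, with 254 CPM in WT replicate 2. The log2 fold changes of these other targets lay between -0.40 and 0.03, with Ero1a the most negative and P4ha1 the only positive.

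WT replicate 2 was the highest of the 8 tumors for 19 of the 32 genes, against 10.8% of all genes tested. These were 12 of the 16 hypoxia response genes and 7 of the 16 glycolysis genes, and this tumor was the lowest for 0 of 32. Its level was a median of 2.13 times (range 0.941 to 3.21) the median of the other tumors over the hypoxia response genes and 1.52 times (0.932 to 2.96) over the glycolysis genes, against 1.0 times over all genes tested. The 16 hypoxia response genes took 0.301% of all counts in WT replicate 2 and 0.131% to 0.174% in the other 7 tumors. Of 24 other hypoxia targets that are not among the 32 genes, among them Vegfa, Hilpda and Bnip3l, 15 were also highest in WT replicate 2, with a median of 1.56 times the other tumors. The members that did not follow were Hif1a, Slc16a1, Pfkfb4, Aldoa and Gapdh, all within 0.932 to 1.06 times. The islet and adipocyte markers given above were also highest in WT replicate 2, while the muscle markers were near absent there, and the part of these tissues in the hypoxia levels was not tested. At the other end, C3-/- replicate 4 was lowest for 12 of 32 genes (11.2% of all genes tested) and WT replicate 1 for 8 (8.89%), 1 from each genotype. C3-/- replicate 1 was highest for 7 of 32, and for 17.98% of all genes tested.

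**Figure D4:**
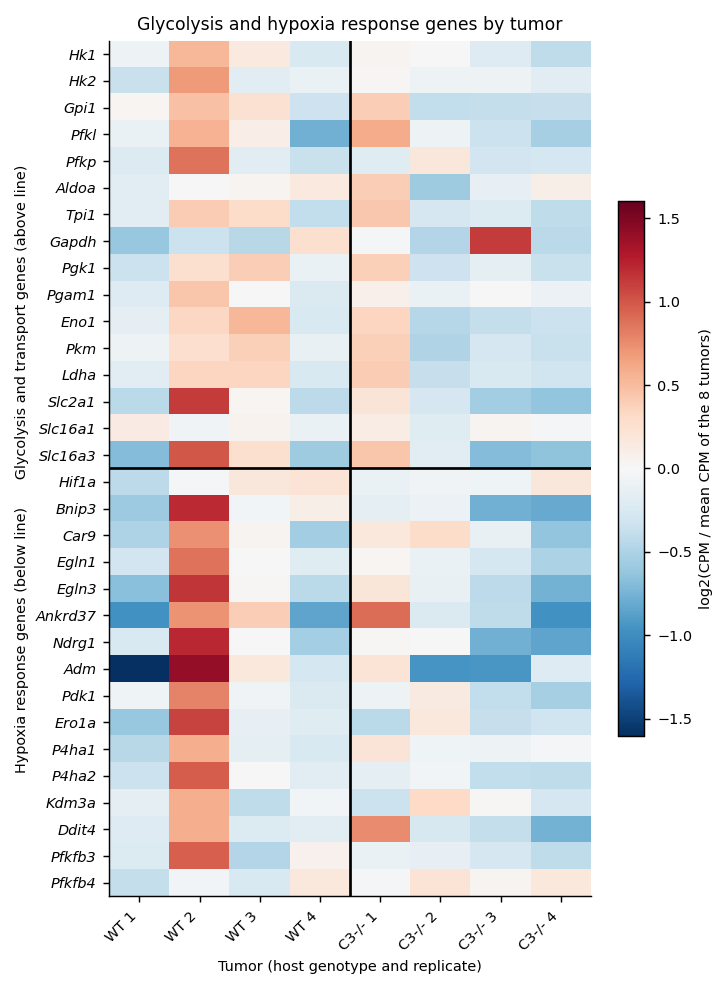
Heat map of the 32 genes (rows) in the 8 tumors (columns), where color gives the log2 ratio of a gene's CPM to its mean over the 8 tumors. The column of WT replicate 2 is the reddest in 19 of 32 rows, most of them below the line that parts hypoxia response from glycolysis genes, and C3-/- replicate 1 is the reddest in 7.

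Ratios between related genes within a tumor do not depend on how libraries are scaled, and 8 of them were compared between genotypes. P4ha1 and P4ha2 encode alternative catalytic subunits of the same collagen hydroxylase. The log2 ratio of P4ha1 to P4ha2 counts was 0.70, 0.40, 0.64 and 0.73 in WT tumors and 1.14, 0.77, 1.10 and 1.18 in C3-/- tumors. All C3-/- tumors thus lay above all WT tumors, by a narrow gap between 0.73 and 0.77. The difference of means was 0.43, with an exact two-sided permutation p of 0.0286, the smallest that 4 against 4 can give, and 0.229 after adjustment over the 8 ratios. The ratio thus did not pass the correction, which a ratio alone at the smallest p cannot pass with 4 against 4 tumors. In FPKM, P4ha1 was 2.0 to 2.51 times P4ha2 in WT tumors and 2.59 to 3.43 times in C3-/- tumors. With 1 tumor left out the difference ranged from 0.36 to 0.52, and 3 against 4 tumors cannot give an exact p below 0.0571.

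The log2 ratio of Pfkfb3 to Pfkfb4 was 2.81 ± 0.55 in WT and 2.27 ± 0.20 in C3-/- tumors (SD, n = 4 each). Their difference of -0.54 had an exact permutation p of 0.0857 (0.343 adjusted) and was -0.28 without WT replicate 2. The other 6 ratios had adjusted exact p-values from 0.947 to 0.971. Ldha exceeded Ldhb, the isoenzyme that favors pyruvate formation, by 35.4 to 58.8 times in FPKM in every tumor. Aldoa exceeded Aldoc by 36.1 to 106 times. Hk2 and Hk1 were near parity, with FPKM ratios from 0.853 to 1.28, and Pfkp stayed below Pfkl in all tumors, at 0.188 to 0.431 times. Egln3 ranged from 1.0 to 1.57 times Egln1, highest in WT replicate 2. The ratio of Slc16a3 to Slc16a1 moved most between tumors, from 0.240 in WT replicate 1 to 0.883 in WT replicate 2.

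**Figure D5:**
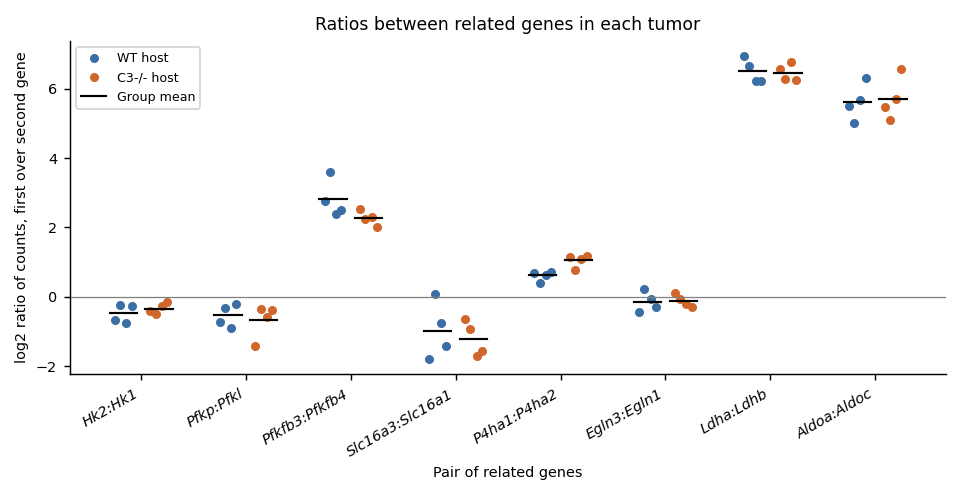
Log2 ratio of counts between the first and the second gene of 8 pairs in each tumor (points, WT hosts blue, C3-/- hosts orange) with the mean of each group as a black line. The groups are apart in P4ha1:P4ha2, where the highest WT value is 0.73 and the lowest C3-/- value 0.77, and overlap in the other 7 pairs.

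Another 67 genes of glycolysis, pyruvate use, oxygen sensing and the hypoxia response were examined for comparison. Of these, 66 were tested and Fbp1 was not, with 0 to 19 counts per tumor. With edgeR and DESeq2 alike, 0 of 66 passed an adjusted p below 0.05. At an unadjusted edgeR p below 0.05, 6 of 66 stood, 5 lower and 1 higher in C3-/- tumors, against 5.11% of all genes tested. In 3 of 66 the genotypes did not overlap, a share near the 3.73% of all genes tested. By function, the unadjusted threshold was met by 0 of 20 glycolysis genes, 0 of 11 pyruvate genes, 2 of 11 oxygen-sensing genes and 4 of 24 other targets. The median log2 fold change was -0.07, 0.01, -0.11 and -0.20 in these groups.

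Cited2, a hypoxia-induced protein that competes with Hif1a for its coactivators, had the smallest p of this list. It was at 55.7, 73.2, 65.8 and 63.9 CPM in WT tumors and at 44.8, 37.8, 40.0 and 50.1 CPM in C3-/- tumors, with no overlap. Its log2 fold change was -0.58 ± 0.14 (unadjusted p = 0.00149, adjusted p = 0.933 in edgeR and 0.107 in DESeq2), and it stayed between -0.66 and -0.52 with any 1 tumor left out. The value closest to 0, -0.52, was the one without WT replicate 2. Vhl, which recognizes hydroxylated Hif1a, was at 38.1, 36.7, 50.9 and 38.7 CPM in WT and at 32.2, 34.2, 33.3 and 32.5 CPM in C3-/- tumors (-0.31 ± 0.14, edgeR adjusted p = 0.971). Dlat, a subunit of the pyruvate dehydrogenase complex, was named after its values were seen as the third gene without overlap, at 77.4 to 87.2 CPM in WT and 67.8 to 73.3 CPM in C3-/- tumors (edgeR adjusted p = 0.971). The matrix cross-linking enzyme Loxl2 (-0.44 ± 0.14) and the carbonic anhydrase Car12 (-0.70 ± 0.28) had lower means in C3-/- tumors, and the transferrin receptor Tfrc a higher mean (0.42 ± 0.14), with edgeR adjusted p from 0.960 to 0.971 and overlapping groups.

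Some counts are less certain than others because genes share sequence or genome positions. An annotated gene overlapped 22 of the 32 members, in 5 cases on the same strand. The strand setting of the counting is not given in the sources used here, so reads of such pairs may not be told apart. The overlapping gene was itself well expressed for Slc16a3 (Csnk1d, 3101 to 4981 counts against at least 1006), Pfkp (Pitrm1, 1158 to 2557 against at least 1962), Ankrd37 (Ufsp2, 542 to 997 against at least 115) and Pkm (Gm49759 on the same strand, 687 to 2594 against at least 23638).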

How the data were processed

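Whole pancreatic tumors, 4 from WT hosts and 4 from C3-/- hosts, were profiled by poly(A) RNA-seq. Per the study's methods, the authors aligned reads to mm39 with STAR and counted them per gene with HTSeq, whereas the submitters' processing notes name HISAT2 2.0.5 and DESeq2 1.20.0. The deposited table holds raw counts per gene, a signal that is the authors' counts divided by 1 size factor per tumor (used only as a check), and the authors' FPKM. Columns of the authors' own comparison (group means, fold changes and p-values) were not used. Samples were grouped by their titles.

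The counts were tested across the whole table with edgeR 4.0.16 in R 4.3.3 (filterByExpr with a minimum count of 10, TMM scaling, quasi-likelihood test on genotype, Benjamini-Hochberg adjustment over 16610 genes), after the fit was tested on simulated data. CPM are TMM-scaled. The filter kept at least 99.78% of the counts of each tumor, and libraries of a group differed by at least 17.1 times sampling noise (mean chi-square per gene). Alternatives were DESeq2 1.42.0, limma-voom 3.58.1, DESeq2's size factors, no filter, 10 counts in every tumor, skeletal muscle or acinar markers as a covariate, the replicate number as a block, and each tumor left out. Ratios used counts plus 0.5 and an exact two-sided permutation test.

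The members and lists were chosen with earlier results of these data known. Values in every tumor were given for Ldha, Slc2a1 and Hif1a, the 8 members with the smallest p, and the 5 with the widest span. Of the other 67 genes, those at an unadjusted p below 0.05 and the partners in ratios were named, except 1 that is not reported here. Promoter windows came from the RefSeq table and were placed on GRCm39 by exact match. Where a gene had several windows, the one with most matches was used for positions, and any window for the shares.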

Additional observations from a re-analysis of the deposited data

Results flagged for a closer look

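In 5 of the 80 groups of 4 tumors that were examined for a single distant value, 1 tumor lay far from the other 3 of its genotype (Dixon's criterion, which chance meets in about 1 in 20 groups). In C3-/- replicate 1, 3 glycolytic enzymes were high: Gpi1 at 671 CPM against 389 to 397 CPM in the other C3-/- tumors, Eno1 at 1578 CPM against 912 to 985 CPM, and Ldha at 1333 CPM against 778 to 850 CPM. In WT replicate 2, Pfkp was at 302 CPM against 129 to 148 CPM in the other WT tumors, and Ddit4 at 254 CPM against 145 to 148 CPM. C3-/- replicate 1 was also the tumor with the highest acinar markers, and WT replicate 2 the one with the highest islet and adipocyte markers. Their part in these values was not tested.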

How the results depend on the processing

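Under all 16 alternatives, 8 of which left out 1 tumor each, 0 of the 32 members and 0 of the other 66 genes passed an adjusted p below 0.05. In the main fit edgeR called 0 of all 16610 genes, C3 included, and DESeq2 called 0.0848% of the 18864 it tested. Counts of 0 thus do not set the members apart from other genes. The fit with the replicate number as a block also called 0 members. Residuals of same-numbered tumors correlated at -0.03, 0.49, -0.36 and 0.59. With values of both signs, this check does not decide whether the numbers pair the tumors. Both medians stayed negative in every fit except that of the hypoxia response genes without WT replicate 2, with ranges over the fits without 1 tumor of -0.34 to -0.03 for the glycolysis genes and -0.47 to 0.05 for the hypoxia response genes. With the skeletal muscle covariate they were -0.0889 and -0.15, and with the acinar covariate -0.0904 and -0.37. With 1 tumor left out, no ratio could reach an exact p below 0.0571, so those fits say nothing about calls on ratios. P4ha1:P4ha2, Pfkfb3:Pfkfb4 and Hk2:Hk1 kept their direction in all fits. For 15 of the 32 members the direction was the same throughout, and 17 turned in at least 1 fit, 8 of them with all tumors in the fit. With limma-voom the log2 fold change became 0.00030 for Hif1a, 0.0015 for Car9 and 0.10 for Ankrd37. With skeletal muscle markers as a covariate it became 0.12 for Pfkl, 0.0163 for Pgam1, 0.17 for Car9 and 0.37 for Ankrd37. With acinar markers it became 0.0935 for Pfkl, 0.0828 for Aldoa, 0.0441 for Slc16a1, 0.12 for Ankrd37 and 0.0686 for Ddit4. The cause was not tested. With 1 tumor left out, the log2 fold change ranged from -0.99 to 0.0157 for Adm, -0.19 to 0.12 for Aldoa, -0.51 to 0.33 for Ankrd37, -0.22 to 0.27 for Car9, -0.49 to 0.16 for Ddit4, -0.63 to 0.10 for Egln3, -0.59 to 0.0819 for Ero1a, -0.0610 to 0.67 for Gapdh, -0.14 to 0.0566 for Hif1a, -0.26 to 0.14 for Hk2, -0.23 to 0.14 for Kdm3a, -0.0933 to 0.29 for P4ha1, -0.33 to 0.18 for Pfkl, -0.39 to 0.11 for Pfkp, -0.13 to 0.12 for Pgam1, -0.0680 to 0.0369 for Slc16a1 and -0.65 to 0.0808 for Slc16a3. The difference in log2 ratio ranged from -0.20 to 0.31 for Aldoa:Aldoc, -0.0760 to 0.14 for Egln3:Egln1, -0.15 to 0.10 for Ldha:Ldhb, -0.26 to 0.10 for Pfkp:Pfkl and -0.51 to 0.11 for Slc16a3:Slc16a1. The median biological coefficient of variation was 0.245, and every member had at least 84 counts in each tumor, the lowest for Adm.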
